A study of Homo sapiens with 6 samples.

Results

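Desmosomes are the junctions that rivet neighboring epithelial cells together. Desmosomal cadherins, the desmogleins (DSG) and desmocollins (DSC), reach across the gap between cells, and their tails bind plakoglobin (JUP) and the plakophilins (PKP), which in turn hold desmoplakin (DSP), the plakin that hooks keratin filaments to the membrane. PERP is a tetraspan membrane protein of desmosomes in stratified epithelia and a known target of p53 and p63. The desmosome genes described are DSC2, DSC3, DSG2, DSG3, DSP, JUP, PKP1, PKP2, PKP3 and PERP, chosen by gene symbol as core components of the junction, and they are 10 of the 58676 genes in the table. All 10 symbols matched a single gene each.

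Expression was measured by RNA sequencing in DCIS.COM, an established basal-type breast cancer cell line that the study used as a model of ductal carcinoma in situ (DCIS). The 3 NS control samples carried the PLKO.1 vector with a non-silencing insert, and the 3 BCL9 KD samples carried PLKO.1 with an shRNA against BCL9, a coactivator of β-catenin, both delivered by lentivirus. Both were grown in DMEM/F12 with horse serum and antibiotic, with a T75 flask for each sample. BCL9 KD rests on a single shRNA sequence and on transduced cell populations, so an effect of this shRNA on other transcripts cannot be told apart from the loss of BCL9, and the p-values measure the spread between flasks. The comparison asked which transcripts change when BCL9 is reduced.

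The samples held between 15222452 and 26949026 reads on genes. BCL9 was between 5.34 and 6.25 FPKM (reads scaled by gene length and sequencing depth) in NS control and between 2.59 and 2.86 FPKM in BCL9 KD samples, a log2 fold change of −0.99 (SE 0.0933, adjusted p = 0.00773 by limma). The summed level of 6 basal epithelial markers, KRT5, KRT14, TP63, EGFR, ITGA6 and CDH3, was 889 to 947 FPKM in NS control and 934 to 956 FPKM in BCL9 KD samples. KRT5 and ITGA6 made up most of this sum. EGFR was lower in every BCL9 KD sample (16.7 to 19.6 against 20.4 to 23.3 FPKM in NS control). TP63 was higher in every BCL9 KD sample (17.1 to 18.3 against 12.5 to 17.0 FPKM). The groups overlapped for the other basal markers, and 34.2% of all genes tested had no overlap. The 5 luminal markers summed to 11.4 to 13.4 FPKM in NS control and 11.5 to 12.1 FPKM in BCL9 KD samples: GATA3 (7.08 to 9.28 FPKM), FOXA1 (2.97 to 3.65 FPKM) and KRT19 (0.604 to 1.09 FPKM) were expressed, while ESR1 was at most 0.0980 FPKM and PGR was at 0 in every sample. Of the endothelial markers, PECAM1 was between 1.72 and 2.29 FPKM in NS control and between 3.11 and 3.91 FPKM in BCL9 KD samples, while CDH5 was at most 0.0534 FPKM; the part of PECAM1-expressing cells in any result was not tested. Summed immune markers reached at most 0.0583 FPKM, and 4 summed fibroblast markers, of which COL1A1 alone reached 0.5 FPKM, were 0.548 to 0.624 FPKM in NS control and 0.633 to 0.749 FPKM in BCL9 KD samples, without overlap; their part in any result was not tested. NS control replicate 1 stood apart from the other NS control samples by base composition. For 2490 tested genes with transcripts under 42% GC, its median log2 level was 0.48 below the other NS control samples (median difference −0.48), and for 1913 genes over 60% GC it was 0.14 above them. NS control replicate 3 departed the other way, with medians of 0.37 and −0.11 for the same gene sets. Values without NS control replicate 1 or after a correction for GC content are given beside the results whose call or group overlap they change. Because whole flasks were sequenced, fewer cells expressing a gene and less RNA of it per cell cannot be told apart.

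In BCL9 KD cells, PERP rose by 24.2% and the other desmosome genes did not pass the test with the deposited values. After the GC correction DSC2 and PKP3 passed and PERP did not. The PERP call was also lost in most fits that left out a sample. Desmosome transcripts were abundant in both groups: 9 of the 10 genes had a mean of at least 0.5 FPKM over the 6 samples and were tested, and each of the 9 exceeded at least 71.8% of the 13745 genes tested. Of these 9 genes, 1 was called (limma, adjusted p under 0.05), against 5.87% of all genes tested. In the higher direction it was 1 of 9 against 2.96%, and in the lower direction 0 of 9 against 2.91%, while 2 of the 9 had an unadjusted p under 0.05. The log2 fold changes ran from −0.25 for DSP to 0.31 for PERP, with 3 above 0, 6 below it and a median of −0.07, beside a median of 0.04 over all genes tested. The 3 BCL9 KD values lay wholly above or below the 3 NS control values for PERP, DSG2 and PKP3, which is 3 of 9 genes against 34.2% of all genes tested, so this share was near the background.

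**Figure D1:**
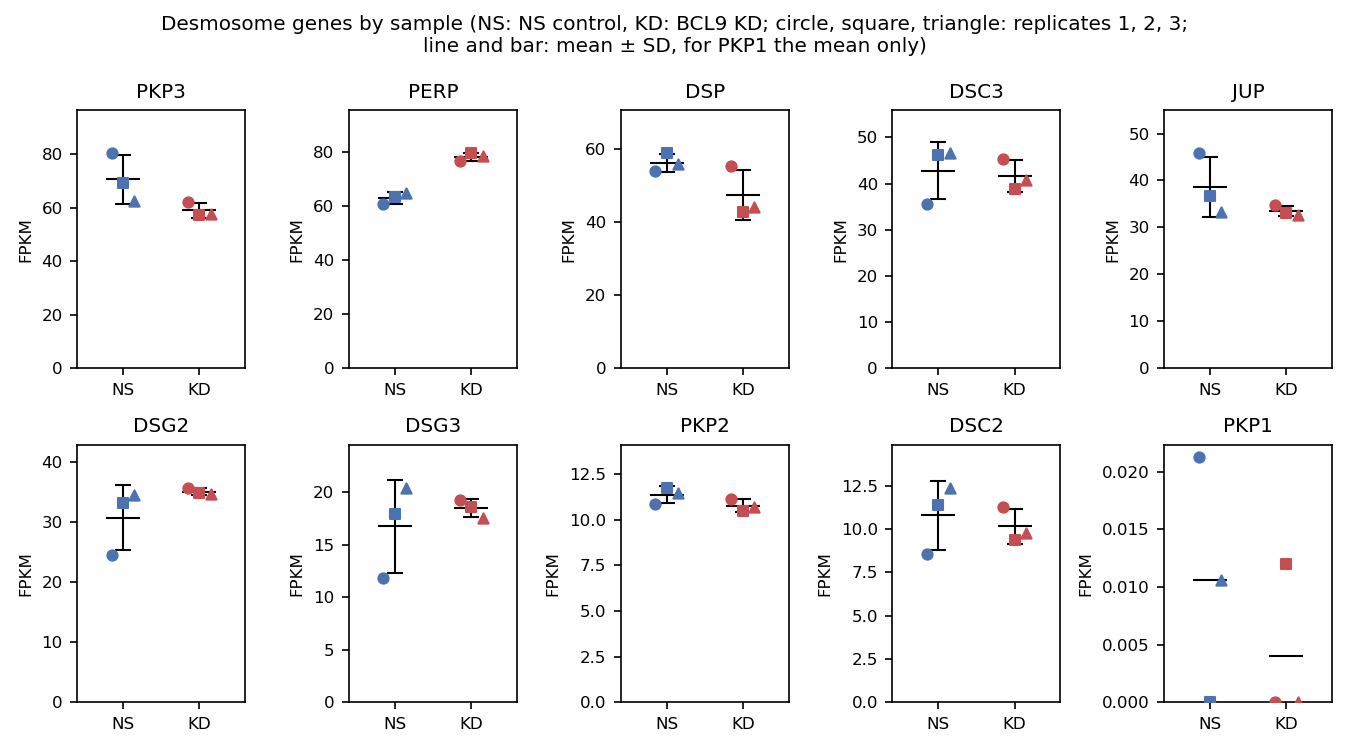
FPKM of the 10 desmosome genes in each sample (vertical axes in FPKM, all starting at 0), with NS control on the left and BCL9 KD on the right of each panel; points are samples, and lines with bars are the mean ± SD (for PKP1 the mean only). PERP is the gene with a clear gap between the groups (60.5 to 64.8 against 76.4 to 79.4 FPKM), NS control replicate 1 (left circle) is low for the 4 cadherins and high for JUP and PKP3, and PKP1 stays under 0.03 FPKM.

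PERP (ENSG00000112378) lies on chromosome 6 of GRCh38 from 138088505 to 138107511 on the minus strand. It was 60.5, 63.3 and 64.8 FPKM in the NS control flasks, listed here and later by replicate number, against 76.4, 79.4 and 78.4 FPKM after BCL9 KD. All 3 BCL9 KD values were higher than all 3 NS control values, and the gap between the groups exceeded the range within either. The means were 62.9 ± 2.14 FPKM (SD, n = 3) and 78.1 ± 1.52 FPKM (SD, n = 3), and the log2 fold change was 0.31 (SE 0.0616, adjusted p = 0.0398 by limma; two-sided exact permutation test p = 0.1, the lowest possible for 3 against 3). These values rest on 4229 to 9179 reads per sample. After the GC correction the log2 fold change of PERP was smaller, at 0.14, and did not pass the test (adjusted p = 0.281 by limma), and with NS control replicate 1 also left out it was 0.22 (adjusted p = 0.0838 by limma). Without NS control replicate 1 it was 0.28 (adjusted p = 0.0469 by limma). With the fold change nearly the same, the call was lost without NS control replicate 2 (adjusted p = 0.153 by limma) and without BCL9 KD replicate 1, 2 or 3 (limma adjusted p = 0.0523, 0.196 and 0.193), at log2 fold changes of 0.30 to 0.33. It was also lost with no filter on low FPKM, median-of-ratios scaling, limma without trend and voom (adjusted p = 0.116, 0.0798, 0.0728 and 0.0651 by limma), at log2 fold changes of 0.27 to 0.31. A block by replicate number lost the call too, at 0.31 (adjusted p = 0.12 by limma) and, with the GC correction added, at 0.14 (adjusted p = 0.369 by limma).

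Sequence around transcription starts was looked up in RefSeq promoter windows of GRCh38.p14, which matched 8 of the 10 genes with 10 windows. The match to the AP-1 motif TGANTCA before the PERP start is shown, in capitals, because PERP was the gene that rose. It begins 101 bases before the start that RefSeq gives, and the stretch lies on the minus strand at chr6:138107494-138107540, written 5′ to 3′:
PERP: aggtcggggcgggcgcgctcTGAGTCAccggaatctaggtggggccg

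Searched on both strands, the AP-1 motif was held by 1 of the 10 desmosome windows, that of PERP, and by 7.71% of all 35116 windows. The STAT motif TTCNNNGAA was held by 1 of the 8 desmosome genes with a window, DSC2, in its second window, and by 7.66% of all windows. The TCF/LEF motif ATCAAAG (2.62% of all windows) and the Grainyhead-like motif AACCGGTT (0.134% of all windows) were found in none of the 10 desmosome windows, which says only that these letters are absent from those windows. The E-box CACCTG, a motif bound by repressors of epithelial genes such as SNAI and ZEB proteins, was held by 4 of the 8 desmosome genes with a window (DSP, JUP, DSC2 and DSG2) and by 20.6% of all windows. Some of these genes had more than 1 window, so the gene count and the window share are not on the same base. Matches are descriptions of sequence and not of binding. The copies farthest from the start in DSP, DSG2 and DSC2 are shown in capitals on the strand of the gene, with distances counted to the RefSeq start, which differs from the gene boundaries in the deposited table, because these genes are the plakin and one cadherin of each kind. They lie at chr6:7541473-7541518 on the plus strand, chr18:31497927-31497970 on the plus strand and chr18:31102552-31102597 on the minus strand:
DSP, 178 bases before the start: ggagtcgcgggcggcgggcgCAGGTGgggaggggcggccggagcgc
DSG2, 232 bases before the start: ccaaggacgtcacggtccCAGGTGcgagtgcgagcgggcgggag
DSC2, 156 bases before the start: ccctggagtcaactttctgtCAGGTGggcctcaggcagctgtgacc

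The desmosomal cadherins are the adhesive part of the junction, and their genes sit side by side in a cluster of 559 kb on chromosome 18 of GRCh38, from 30990008 to 31549008. Transcripts came from its outer ends: DSC3 and DSC2 at one end and DSG3 and DSG2 at the other were expressed in every sample, while DSC1, DSG1 and DSG4 between them had 7, 2 and 3 reads over all 6 samples together. The highest value of these inner genes was 0.0412 FPKM, for DSC1 in NS control replicate 1. A floor of 3 reads corresponds to between 0.0212 and 0.0461 FPKM for the inner genes at these depths, so lower levels were not detectable. DSC1 and DSG1 are the isoforms of the uppermost epidermal layers, and DSG4 is that of the hair follicle.

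**Figure D2:**
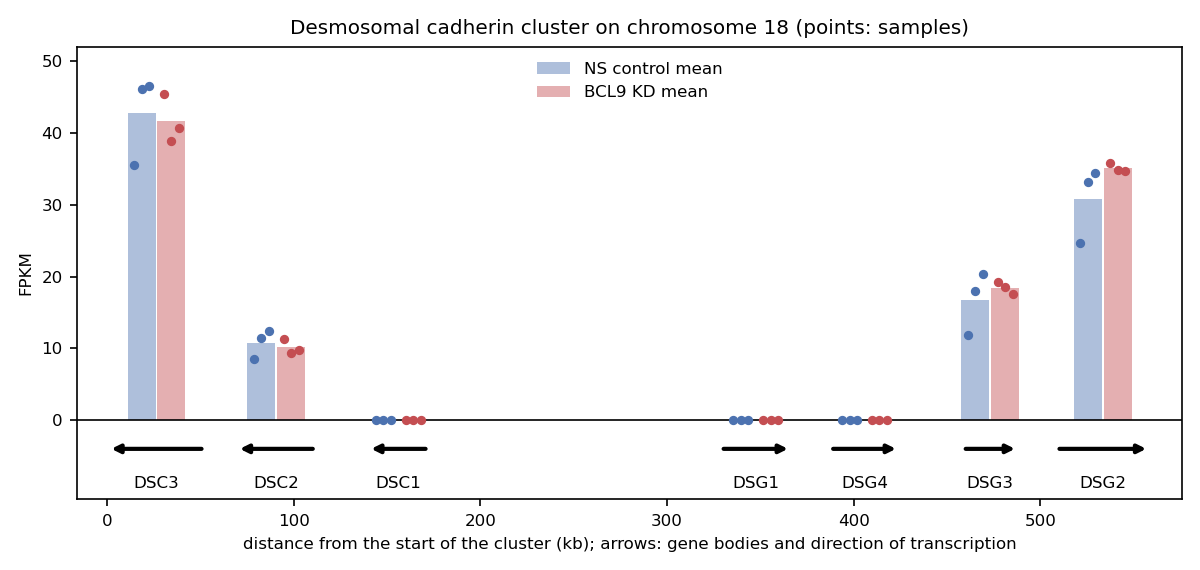
FPKM (vertical axis) of the 7 desmosomal cadherin genes placed by distance in kb from the start of their cluster on chromosome 18 (horizontal axis); bars are group means, points are samples and arrows are gene bodies with their direction of transcription. DSC3, DSC2, DSG3 and DSG2 at the outer ends carry the signal, and DSC1, DSG1 and DSG4 between them are at or near 0 in all 6 samples.

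DSC3 (ENSG00000134762), a desmocollin of basal cells in stratified epithelia, had the highest level among the cadherins. It was 35.6, 46.1 and 46.6 FPKM in NS control and 45.4, 38.9 and 40.7 FPKM in BCL9 KD, a log2 fold change of −0.03 (SE 0.121, adjusted p = 0.890 by limma). DSC2 (ENSG00000134755), the widely expressed desmocollin, was 8.58, 11.4 and 12.4 FPKM in NS control and 11.3, 9.37 and 9.79 FPKM in BCL9 KD, a log2 fold change of −0.07 (SE 0.144, adjusted p = 0.769 by limma). For both genes the groups overlapped, and the lowest value of the 6 was that of NS control replicate 1. After the GC correction DSC2 passed the test with a log2 fold change of −0.29 (adjusted p = 0.0375 by limma), and DSC3 had −0.20 (adjusted p = 0.107 by limma).

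DSG2 (ENSG00000046604), the desmoglein of simple as well as stratified epithelia, was 24.6, 33.2 and 34.5 FPKM in NS control and 35.8, 34.8 and 34.8 FPKM in BCL9 KD. The groups did not overlap, though the highest NS control value and the lowest BCL9 KD value were nearly equal. The log2 fold change was 0.20 (SE 0.128, adjusted p = 0.341 by limma), with 0.05 when NS control replicate 1 was left out and 0.005 after the GC correction. DSG3 (ENSG00000134757), a desmoglein of basal layers and the pemphigus vulgaris antigen, was 11.9, 17.9 and 20.4 FPKM in NS control and 19.2, 18.6 and 17.5 FPKM in BCL9 KD. Its log2 fold change of 0.17 (SE 0.186, adjusted p = 0.570 by limma) turned to −0.05 without NS control replicate 1. Among annotated genes that overlap the cadherins, the antisense gene DSG2-AS1 had 21 reads beside 23969 for DSG2, and the counting was not stated to use strand.

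Summed over DSC2, DSC3, DSG2 and DSG3, the cadherin level was 80.7, 109 and 114 FPKM in NS control and 112, 102 and 103 FPKM in BCL9 KD. Within this pool, DSG2 made up 30.5%, 30.6% and 30.3% in NS control and 32.0%, 34.2% and 33.8% in BCL9 KD, with no overlap between the groups. DSC3 made up 44.1%, 42.4% and 40.9% in NS control and 40.6%, 38.2% and 39.6% in BCL9 KD, also without overlap but by a narrow margin. DSC2 made up 10.6%, 10.5% and 10.9% in NS control and 10.1%, 9.22% and 9.53% in BCL9 KD, again without overlap, whereas DSG3, with 14.7%, 16.5% and 17.9% in NS control and 17.2%, 18.3% and 17.1% in BCL9 KD, overlapped. These shares are parts of a single total, so they do not move independently, and they were not tested. For comparison, the levels of 34.2% of all genes tested did not overlap between the groups. A single scale factor per sample cancels out of such shares and of ratios of FPKM within a sample. A shift with GC content does not cancel out, and the shares were not computed after the GC correction.

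The ratio of the desmogleins (DSG2 + DSG3) to the desmocollins (DSC2 + DSC3) was 0.826, 0.890 and 0.931 in NS control replicates 1, 2 and 3. It was 0.971, 1.11 and 1.04 in BCL9 KD replicates 1, 2 and 3, so every BCL9 KD value was above every NS control value. On the log2 scale, with 0.5 FPKM added to each sum, the mean ratio was −0.18 in NS control and 0.05 in BCL9 KD, a difference of 0.23 (p = 0.1 by the two-sided exact permutation test, which cannot go lower for 3 against 3, and 0.35 after Benjamini-Hochberg adjustment over 7 ratios). The difference was 0.25 after the GC correction and 0.19 without NS control replicate 1, and in both cases the groups did not overlap. Within each class, DSC3 exceeded DSC2 by 3.76 to 4.15 times in all 6 samples (two-sided exact permutation test p = 0.5), and DSG3 was between 0.481 and 0.592 of DSG2 (p = 0.8 in the same exact test). At 3 against 3 no ratio could reach p under 0.05, so these values do not show that the balance of isoforms was unchanged. The groups did not overlap for DSC3 to DSC2 after the GC correction (log2 difference 0.10 against 0.04 as deposited), nor for DSG3 to DSG2 without NS control replicate 1 (−0.10 against −0.03).

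**Figure D3:**
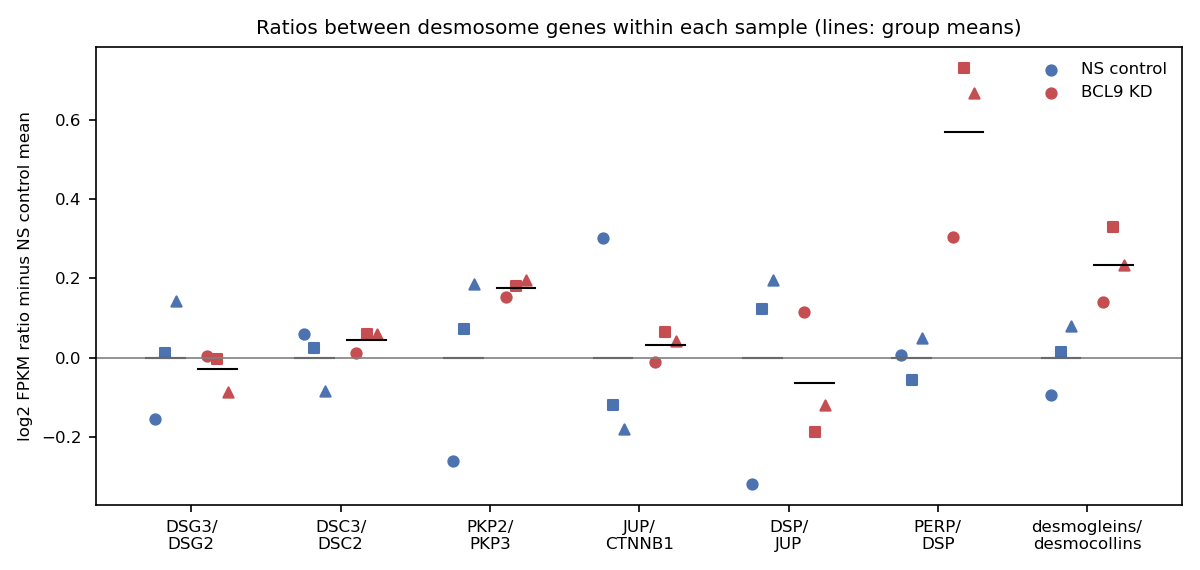
Log2 of the FPKM ratio, with nothing added, between desmosome genes within each sample, minus the mean of the NS control samples (vertical axis), for 7 ratios (horizontal axis); points are samples (circle, square and triangle for replicates 1, 2 and 3) and lines are group means. The BCL9 KD points lie wholly above the NS control points for PERP/DSP and for desmogleins/desmocollins, and the groups overlap for the other ratios.

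JUP (ENSG00000173801), or plakoglobin, is the armadillo protein that links the cadherin tails to desmoplakin and is a close relative of β-catenin. It lies on chromosome 17 from 41754604 to 41786931. It was 45.8, 36.8 and 33.2 FPKM in NS control and 34.8, 33.2 and 32.6 FPKM in BCL9 KD, a log2 fold change of −0.19 (SE 0.119, adjusted p = 0.337 by limma). The groups overlapped, with NS control replicate 1 the highest value, and the log2 fold change was −0.06 without it and −0.29 without NS control replicate 3. The ratio of JUP to CTNNB1, the β-catenin gene, was 0.174, 0.130 and 0.125 in NS control and 0.140, 0.148 and 0.146 in BCL9 KD (two-sided exact permutation test p = 1). Without NS control replicate 1 its log2 difference was 0.18, against 0.03 with all samples, and the groups did not overlap. With quantile normalization the log2 difference was 0.19, with overlap.

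The plakophilins strengthen the plaque by binding cadherins, plakoglobin and desmoplakin. PKP3 (ENSG00000184363), the plakophilin found in most epithelia, lies on chromosome 11 from 392614 to 404908 and had the highest mean of the desmosome transcripts in NS control cells. It was 80.3, 69.1 and 62.4 FPKM in NS control and 62.0, 57.2 and 57.6 FPKM in BCL9 KD. The groups did not overlap by a narrow margin, and the log2 fold change was −0.25 (SE 0.102, adjusted p = 0.168 by limma). After the GC correction it was −0.23 and passed the test (adjusted p = 0.0489 by limma), and without NS control replicate 1 it was −0.16 (adjusted p = 0.224 by limma). PKP2 (ENSG00000057294), on chromosome 12 from 32790745 to 32896840, is the plakophilin of simple epithelia and of the heart. It ran from 10.9 to 11.8 FPKM in NS control and from 10.5 to 11.2 FPKM in BCL9 KD, with overlap between the groups (log2 fold change −0.07, SE 0.0692, adjusted p = 0.511 by limma). PKP1 (ENSG00000081277), the plakophilin of suprabasal epidermis, on chromosome 1 from 201283452 to 201332993, had 3, 0 and 1 reads in NS control and 0, 2 and 0 reads in BCL9 KD. All these values were at or below 3 reads, which correspond to between 0.0179 and 0.0317 FPKM for this gene, so PKP1 was not tested and no fold is given.

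DSP (ENSG00000096696), the obligate link from the plaque to keratin filaments, lies on chromosome 6 from 7541575 to 7586717. It was 53.9, 58.8 and 55.9 FPKM in NS control and 55.3, 42.8 and 44.1 FPKM in BCL9 KD. BCL9 KD replicates 2 and 3 were below every NS control sample, while BCL9 KD replicate 1 lay within the NS control range. The means were 56.2 ± 2.47 FPKM (SD, n = 3) and 47.4 ± 6.88 FPKM (SD, n = 3), and the log2 fold change was −0.25 (SE 0.108, adjusted p = 0.186 by limma), and without BCL9 KD replicate 1 it was −0.37 (adjusted p = 0.0477 by limma). The ratio of PERP to DSP was 1.12, 1.08 and 1.16 in NS control and 1.38, 1.86 and 1.78 in BCL9 KD, without overlap. The mean log2 ratio differed by 0.56 (two-sided exact permutation test p = 0.1, and 0.35 adjusted over 7 ratios), and after the GC correction the difference was 0.35 with overlap between the groups. The ratio of DSP to JUP ran from 1.18 to 1.68 in NS control and from 1.29 to 1.59 in BCL9 KD (two-sided exact permutation test p = 0.8), and its log2 difference of −0.06 became −0.22, without overlap, when NS control replicate 1 was left out. For PKP2 to PKP3 it ran from 0.135 to 0.184 in NS control and from 0.180 to 0.185 in BCL9 KD (two-sided exact permutation test p = 0.3). The log2 difference of 0.18 was 0.05 without NS control replicate 1 and 0.27, with no overlap, without NS control replicate 3, and after the GC correction it was 0.13 with no overlap between the groups.

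**Figure D4:**
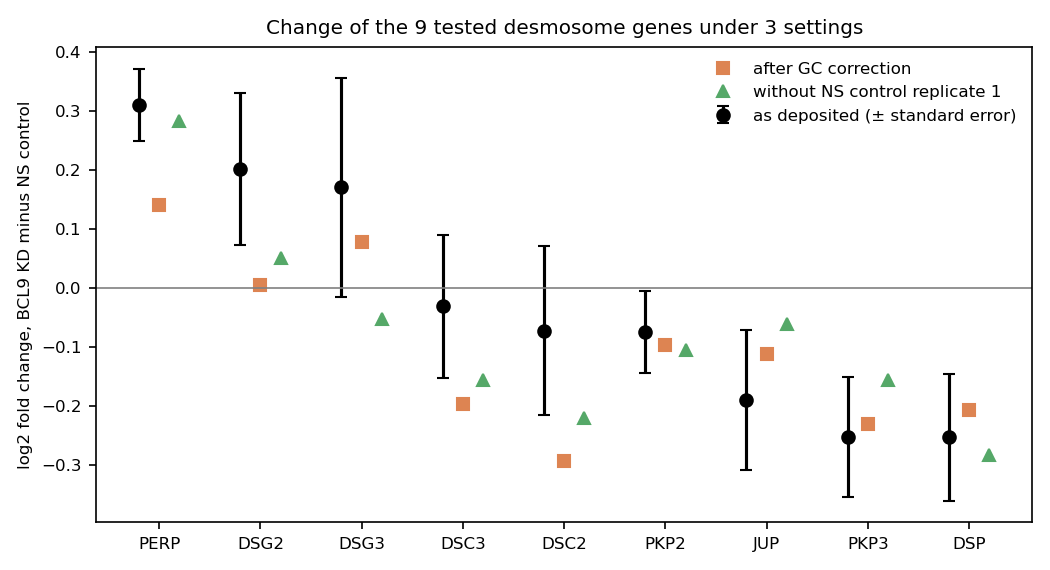
Log2 fold change of BCL9 KD minus NS control (vertical axis) for the 9 tested desmosome genes (horizontal axis): black circles with standard errors use the deposited FPKM, orange squares a correction for GC content and green triangles leave out NS control replicate 1. PERP stays above 0 in all 3, at 0.31, 0.14 and 0.28, and the cadherins are lower by both alternatives than with the deposited values.

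Because FPKM is per length, the levels of the genes can be ordered, although levels in NS control replicates 1 and 3 shifted with GC content in opposite directions. The order, like the shares and ratios between genes, also depends on the deposited gene lengths, which were taken as given. DSC2, with 12371 bases and 15088 reads over all samples, ranked below PKP2, with 7043 bases and 9202 reads. PKP3, with 68.5% GC, stood above PERP, with 40.4% GC, in NS control replicate 1 (80.3 against 60.5 FPKM) and below it in NS control replicate 3 (62.4 against 64.8 FPKM). By mean level in NS control cells the order was PKP3, PERP, DSP, DSC3, JUP, DSG2, DSG3, PKP2, DSC2 and PKP1, with a mean of 70.6 FPKM for PKP3 and at most 3 reads for PKP1. Neighbors in this order whose values overlapped were PKP3 and PERP, DSC3 and JUP, JUP and DSG2, and PKP2 and DSC2. In BCL9 KD cells PERP stood first with 78.1 FPKM, above PKP3 with 58.9 ± 2.67 FPKM (SD, n = 3), and these 2 genes no longer overlapped. DSG2 and JUP exchanged places but overlapped in both groups, and DSP and DSC3, separate in NS control, overlapped in BCL9 KD.

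**Figure D5:**
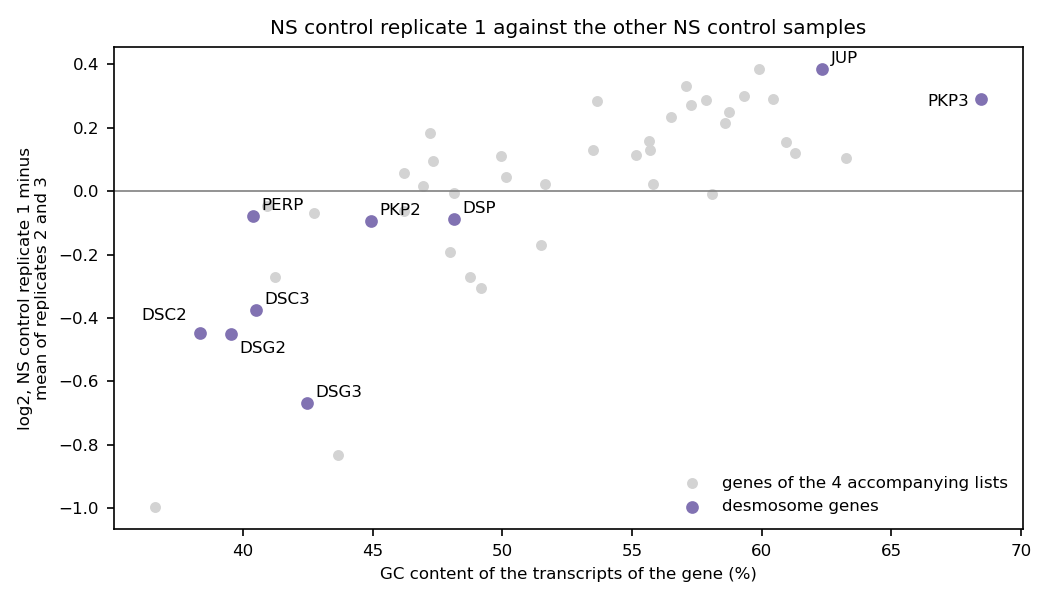
Log2 level in NS control replicate 1 minus the mean of NS control replicates 2 and 3 (vertical axis) against the GC content of the transcripts of each gene in percent (horizontal axis), for the 9 tested desmosome genes (purple) and genes of the 4 accompanying lists (grey). The cadherin genes, at 38.4% to 42.5% GC, lie between −0.67 and −0.38, JUP and PKP3, at 62.3% and 68.5% GC, lie at 0.38 and 0.29, and PERP, at 40.4% GC, lies at −0.08.

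The departure of NS control replicate 1 touched the members unequally. The 4 cadherins were lower in it than in the other NS control samples by log2 differences of −0.67 for DSG3, −0.45 for DSG2, −0.45 for DSC2 and −0.38 for DSC3, and their transcripts hold 38.4% to 42.5% GC. JUP and PKP3, with 62.3% and 68.5% GC, were higher in it by 0.38 and 0.29. PERP, DSP and PKP2 differed in it by −0.08, −0.09 and −0.09. The part of base composition in the cadherin values was not tested.

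Partners of the desmosome were read from 4 accompanying lists in the same fit. Of the rest of the desmosome family, DSC1, DSG1, DSG4, PKP4, PPL, EVPL, CDSN and KAZN, 4 were tested and 0 were called by limma, while 2 had an unadjusted p under 0.05 and the median log2 fold change was −0.13, beside 807 called and 3775 with an unadjusted p under 0.05 among all 13745 genes tested. The plakins that cap keratin at the cell border had log2 fold changes of 0.20 for PPL, periplakin (adjusted p = 0.239 by limma), and −0.29 for EVPL, envoplakin (adjusted p = 0.1 by limma). After the GC correction PPL had 0.29 and passed the test (adjusted p = 0.0477 by limma). CDSN, corneodesmosin, was at 0 in every sample.

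The adherens junction genes build the neighboring actin-linked junction. Of the 10 tested, 1 fell (2.91% of all genes tested did) and 9 did not pass, with a median log2 fold change of −0.09. VCL, or vinculin, which couples catenins and integrins to actin, fell, with means of 49.1 ± 2.94 FPKM in NS control and 31.2 ± 1.78 FPKM in BCL9 KD (both SD, n = 3), a log2 fold change of −0.65 (adjusted p = 0.0122 by limma). Without NS control replicate 2 or BCL9 KD replicate 2 or 3 the adjusted p of VCL by limma was 0.0811, 0.0977 and 0.102. With no filter on low FPKM and with the replicate block it was 0.093 and 0.0789. CTNNB1, the β-catenin gene to whose product BCL9 binds, had −0.22 (adjusted p = 0.112 by limma), and CTNNA1, α-catenin, had −0.05 (adjusted p = 0.741 by limma). With quantile normalization CTNNB1 had −0.41 (adjusted p = 0.0603 by limma).

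Of 11 keratins that desmosomes anchor, 1 rose (2.96% of all genes tested did), and the median log2 fold change was −0.02. KRT15, a keratin of basal cells, rose, with means of 184 ± 9.68 FPKM in NS control and 234 ± 5.21 FPKM in BCL9 KD (both SD, n = 3), a log2 fold change of 0.35 (adjusted p = 0.0387 by limma). The KRT15 call was lost without NS control replicate 2 (adjusted p = 0.154 by limma) and without BCL9 KD replicate 1, 2 or 3 (adjusted p = 0.0537, 0.193 and 0.185 by limma). With quantile normalization the log2 fold change of KRT15 was 0.18 (adjusted p = 0.0855 by limma), and the call was also lost with median-of-ratios scaling, voom, limma without trend and no filter on low FPKM (adjusted p = 0.1095, 0.0699, 0.0673 and 0.1625 by limma). The replicate block, alone and with the GC correction, lost the KRT15 call too (adjusted p = 0.125 and 0.0556 by limma). The most abundant keratins that did not pass, KRT17 and KRT6B, had log2 fold changes of −0.02 (adjusted p = 0.925 by limma) and −0.18 (adjusted p = 0.237 by limma). KRT6B passed with quantile normalization (−0.36, adjusted p = 0.0342 by limma).

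Of 12 regulators of desmosome assembly and turnover, 1 fell (2.91% of all genes tested did), with a median of −0.12. ZDHHC5, a palmitoyltransferase that modifies desmosomal cadherins, fell, with means of 30.1 ± 1.23 FPKM in NS control and 24.6 ± 0.420 FPKM in BCL9 KD (both SD, n = 3), a log2 fold change of −0.29 (adjusted p = 0.0499 by limma), at the edge of the threshold. In most fits that left out a sample the ZDHHC5 call was lost (adjusted p by limma = 0.0563 without NS control replicate 1 and 0.218 without BCL9 KD replicate 2). It was also lost with median-of-ratios scaling, voom, limma without trend, robust fitting, a pseudocount of 0.1 and no filter on low FPKM (adjusted p = 0.066, 0.0548, 0.0856, 0.0509, 0.0509 and 0.13 by limma). The replicate block, alone and with the GC correction, lost the ZDHHC5 call too (adjusted p = 0.138 and 0.127 by limma). ATP2A2, the SERCA2 calcium pump needed for desmosome assembly in keratinocytes, had −0.27 (adjusted p = 0.0537 by limma). ATP2A2 passed after the GC correction (−0.24, adjusted p = 0.0287 by limma), with quantile normalization, with a mean of at least 1 FPKM, among protein-coding genes and without NS control replicate 3 (adjusted p = 0.0374, 0.0488, 0.0418 and 0.0406 by limma). ADAM17, a sheddase that cleaves desmosomal cadherins, had −0.13 (adjusted p = 0.404 by limma), and −0.21 after the GC correction (adjusted p = 0.177 by limma).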

How the data were processed

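RNA from 3 NS control and 3 BCL9 KD flasks of DCIS.COM cells was sequenced as paired-end reads. The labels call the 3 flasks of a group biological replicates, and all were used, while the methods speak of 2 biological replicates per condition for the differential test, so how far the flasks are independent is unclear. Per the labels and the methods, the authors aligned reads with STAR to hg38, counted them per gene with HTSeq 0.6.1 and deposited FPKM for 58676 genes together with the gene length used. FPKM scaled by gene length gave whole reads for 100% of values above 0, within a tolerance of 0.1 reads, and so the depth. Without molecular identifiers, reads may share a molecule, and read floors cover counting error only. Annotation version was not given in the sources used here.

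Log2(FPKM + 0.5) was fitted with limma 3.58.1 (empirical Bayes trend, R 4.3.3), BCL9 KD minus NS control, over the 13745 genes whose FPKM averaged 0.5 or more, with Benjamini-Hochberg adjustment over all of them and a threshold of 0.05. The added 0.5 makes fold changes of low genes smaller. Ratios within a sample were compared by two-sided exact permutation tests (scipy 1.17.1). A planned ratio of PKP1 to PKP3 was not computed because PKP1 had at most 3 reads in any sample. The GC correction subtracted from each sample a loess curve (span 0.3) on mean transcript GC content, taken from GRCh37 transcripts and known for 98.8% of genes tested. Alternatives were other pseudocounts, filters, scalings and variance models, voom on the recovered reads, protein-coding genes only, a replicate block, the GC correction, other thresholds and leaving out each sample. Named were BCL9, all 10 desmosome genes and, from each accompanying list, genes that passed (at most 4) and the 2 most abundant that did not. DSC1, DSG1, DSG4 and CDSN were also named for their counts after their values were seen. The members and lists were chosen with earlier results of these data known.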

Additional observations from a re-analysis of the deposited data

How the results depend on the processing

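The number of desmosome genes called was 1. It was 0 with no filter on low FPKM, median-of-ratios scaling, limma without trend, voom, the replicate block, that block together with GC correction, GC correction without NS control replicate 1 (chosen after seeing the data) and a threshold of 0.01 (with 1, 2, 1, 3, 2, 2, 4 and 2 of the members at an unadjusted p under 0.05), and 2 with the GC correction, which called DSC2 and PKP3 but not PERP. With each sample left out it was between 0 and 1. Over all genes, the 807 calls became 0 with no filter (4398 at an unadjusted p under 0.05, limma), 536 with median-of-ratios scaling, 332 without trend, 1327 with voom, 1409 for protein-coding genes only, 0 with the replicate block (3235 at an unadjusted p under 0.05, limma), 1605 with the GC correction, 154 when this also had the replicate block, 43 and 2091 at thresholds of 0.01 and 0.1, and 5 to 1712 with each sample left out (12 without NS control replicate 2, 1712 without NS control replicate 3, 13 without BCL9 KD replicate 2 and 5 without BCL9 KD replicate 3). The 3 calls in the accompanying lists became 0 with no filter, with the replicate block and at a threshold of 0.01, 1 with median-of-ratios scaling, without trend and with the GC correction and replicate block, 5 with a mean FPKM of at least 1 and for protein-coding genes, 6 at a threshold of 0.1, 7 with the GC correction, 8 with quantile normalization and 0 to 5 with each sample left out. BCL9 kept a log2 fold change of −0.99 but not the call with no filter (adjusted p = 0.0625 by limma) or under the replicate block (adjusted p = 0.0656 by limma), and ran from −1.06 to −0.95 with each sample left out, with the call lost without NS control replicate 2 and BCL9 KD replicates 2 and 3 (adjusted p = 0.0637, 0.06 and 0.07 by limma). Deviations from the group means had correlations across genes of −0.147, −0.0884 and −0.00287 between same-numbered samples. Between different-numbered samples the mean correlation was 0.0387. Whether same-numbered flasks share a batch was not tested.

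Direction turned for some genes and ratios, among them DSG2 and DSG3, whose log2 fold changes were 0.20 and 0.17. With each sample left out, the log2 fold change of DSC2 ran from −0.22 to 0.032, of DSC3 from −0.16 to 0.036, of DSG3 from −0.051 to 0.33, of CTNNA1 from −0.12 to 0.015 and of KRT17 from −0.067 to 0.080. With the GC correction and without NS control replicate 1, DSG2 was −0.026, DSG3 −0.074, CTNNA1 0.043 and KRT17 0.094. With the GC correction on all samples KRT17 was 0.071, and it was 0.071 with the replicate block added. The log2 ratio difference of DSG3 to DSG2 was 0.073 with the GC correction and ran from −0.10 to 0.038 with each sample left out, that of JUP to CTNNB1 from −0.055 to 0.18 and that of DSP to JUP from −0.22 to 0.034. The other 4 ratios kept their direction in these fits. The cause of the shifts was not tested.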
